A study of Rattus norvegicus with 3 samples.

Results

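Expression of 6 peptide genes was followed across 3 arrays of cultured rat granulosa cells: Penk, Adcyap1, Adcyap1r1, Cga, Vip and Nts. They encode secreted peptide precursors, a hormone subunit and a receptor. They were taken by symbol, as all probe sets that the platform annotation assigns to one of these genes alone, which gave 10 of the 31099 probe sets on the array and 6 of its 14218 genes. Adcyap1r1 had 4 probe sets, Adcyap1 had 2, and Penk, Cga, Vip and Nts had 1 each. The genes had been proposed as a group of neuroendocrine genes switched on in granulosa cells, with results of these same arrays known, so their values below are a description. Penk, Adcyap1 and Cga had signals above the detection floor on both stimulated arrays, whereas Adcyap1r1, Vip and Nts stayed below it on every array.

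The cells were primary granulosa cells from immature female Sprague-Dawley rats aged 24 to 25 days, obtained by puncturing follicles 48 h after pregnant mare's serum gonadotropin, a preparation that drives follicles to the preovulatory stage. The group Ad-NFIL3 + FSK/PMA received an adenovirus carrying NFIL3, a basic leucine zipper transcription factor known as a repressor, and was then stimulated with forskolin (FSK) at 10 uM together with the phorbol ester phorbol 12-myristate 13-acetate (PMA) at 20 nM. The group Ad-GFP + FSK/PMA received a virus carrying green fluorescent protein and the same stimulus, and the group Ad-GFP received that virus with no stimulus in its label. All 3 groups were thus infected, at 50 pfu per cell, and no uninfected cells were measured. The stimulus was added 24 h after the virus and left for 6 h. Forskolin activates adenylyl cyclase and the phorbol ester activates protein kinase C, and the submitters used the pair to mimic the ovulatory gonadotropin. Each group was 1 array of RNA pooled from 3 experiments, so no difference below has a replicate check or a p-value.

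Neuropeptides and peptide hormones are made as larger precursors that enter the secretory pathway, are cut by prohormone convertases and trimmed, and are often released from granules on demand. Most act through G protein-coupled receptors on neighbouring or distant cells. In the preovulatory follicle the luteinizing hormone surge acts on granulosa cells largely through cyclic AMP, and genes with cyclic AMP response elements (CREs) are among those that answer. PACAP, the product of Adcyap1, is known as a peptide that rat granulosa cells make for a short time around ovulation.

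The annotated windows upstream of 3 members are shown because they held a match to a CRE or AP-1 pattern: that of Cga, which was detected after stimulation, and those of Vip and Nts, which were not. The RefSeq table of build GRCr8 held a window for 5 of the 6 members, and Penk is only named here. Capitals mark matches, on either strand, to the short CRE core TGACG, to the CRE-like letters TGANGTCA, in which 1 base is free, and to the AP-1 letters TGANTCA; the full CRE palindrome TGACGTCA would match both CRE patterns. The windows cover the 250 bases before the annotated start of Cga at chr5:54283090-54283339 on the plus strand, of Vip at chr1:44470230-44470479 on the plus strand and of Nts at chr7:39460889-39461138 on the minus strand; the annotated span of the gene begins 231 bases before that start for Cga and 248 bases before it for Vip.
Cga: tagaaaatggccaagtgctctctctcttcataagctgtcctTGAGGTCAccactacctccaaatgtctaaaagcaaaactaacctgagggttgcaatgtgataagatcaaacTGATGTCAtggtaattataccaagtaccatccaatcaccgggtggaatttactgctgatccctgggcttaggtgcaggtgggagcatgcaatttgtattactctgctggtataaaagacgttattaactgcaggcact
Vip: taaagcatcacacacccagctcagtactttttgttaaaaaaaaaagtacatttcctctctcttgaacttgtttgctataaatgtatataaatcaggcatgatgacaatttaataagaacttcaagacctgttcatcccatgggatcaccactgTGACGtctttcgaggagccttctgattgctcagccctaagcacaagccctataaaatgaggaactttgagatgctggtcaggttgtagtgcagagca
Nts: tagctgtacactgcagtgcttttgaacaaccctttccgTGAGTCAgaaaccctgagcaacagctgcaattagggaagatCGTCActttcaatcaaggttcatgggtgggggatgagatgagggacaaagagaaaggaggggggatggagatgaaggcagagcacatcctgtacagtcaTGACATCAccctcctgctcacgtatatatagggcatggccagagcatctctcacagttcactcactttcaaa

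The Cga window held TGANGTCA at 2 places, as TGAGGTCA from 209 to 202 bases and as TGATGTCA from 138 to 131 bases before the start, and no TGACG core. The Vip window held the core TGACG at 1 place, 97 to 93 bases before the start, and no TGANGTCA. The Nts window held 1 such core, 1 match to TGANGTCA in the form TGACATCA from 72 to 65 bases before the start, and 1 AP-1 match in the form TGAGTCA. Of 33469 annotated windows of this length, 18.2% held the core, 8.88% held TGANGTCA, 1.59% held the full palindrome and 6.34% held the AP-1 letters. None of the 5 member windows held the palindrome or the letters TTANGTAA, a form of the NFIL3 binding site that 2.04% of windows held. The window of Adcyap1, which was detected after stimulation, lay 12623 bases inside the gene's annotated span and held none of the CRE or AP-1 patterns, and the Adcyap1r1 window, with 73.2% G and C, held none either. A match is a description of these letters and not a bound site.

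Nfil3 was read as a check of the labels, with signals of 5882 on the Ad-NFIL3 + FSK/PMA array, 1321 on the Ad-GFP + FSK/PMA array and 564 on the Ad-GFP array. The signal was thus highest where the label names the NFIL3 virus, although it is not known whether the single probe set lies within the viral insert. The values are linear MAS5 signals, in which a probe set has a single intensity. A floor of 126 was used, which is the median of the whole table, and between 48.1% and 51.8% of probe sets were at or above it. The 27 controls for transcripts absent from rat RNA reached at most 47.7. The median ratio of the 9 spiked hybridisation controls to the Ad-GFP array was 1.48 on the Ad-NFIL3 + FSK/PMA array and 1.39 on the Ad-GFP + FSK/PMA array. The 3' to 5' signal ratio of hexokinase was 2.98, 5.04 and 3.21 on the Ad-NFIL3 + FSK/PMA, Ad-GFP + FSK/PMA and Ad-GFP arrays, that of beta-actin was 3.08, 3.80 and 2.61, and that of Gapdh was 1.14, 1.15 and 1.28; their part in the differences below was not tested.

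**Figure D1:**
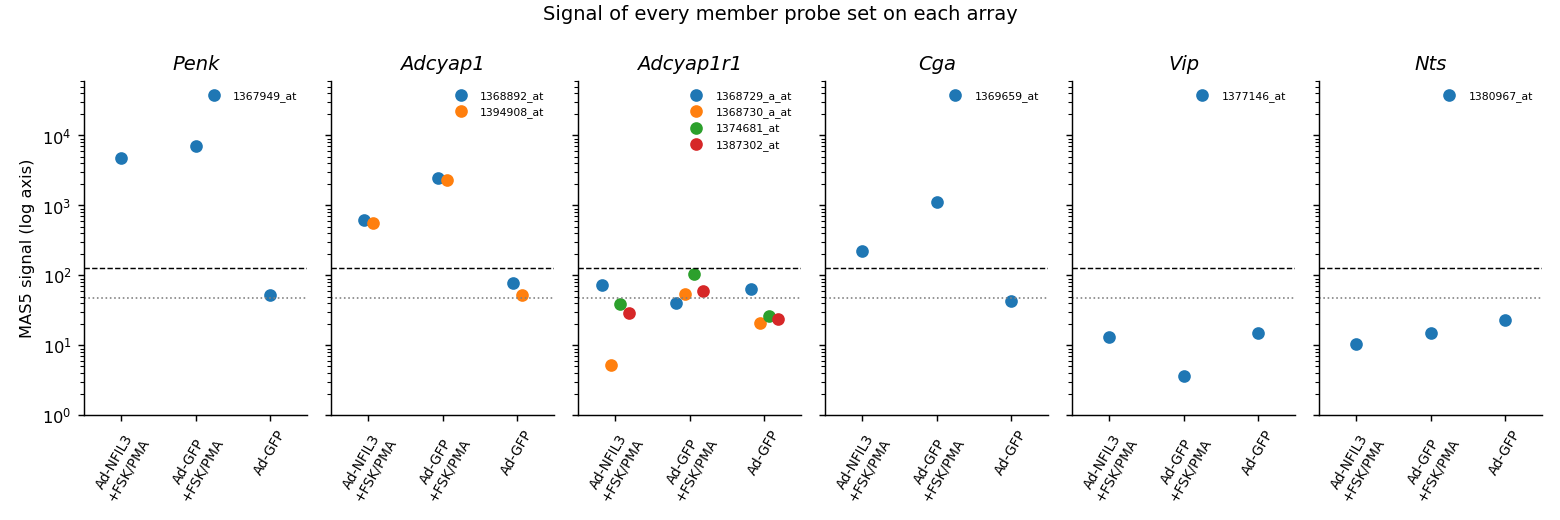
MAS5 signal (log axis) of all 10 member probe sets on the Ad-NFIL3 + FSK/PMA, Ad-GFP + FSK/PMA and Ad-GFP arrays, 1 point per probe set and array. The dashed line is the floor of 126 and the dotted line is the highest negative control, 47.7; Penk, Adcyap1 and Cga pass the floor on both stimulated arrays and no other member passes it.

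Penk encodes proenkephalin, the precursor of the opioid peptides Met-enkephalin and Leu-enkephalin. Its signal was 4821 on the Ad-NFIL3 + FSK/PMA array, 7021 on the Ad-GFP + FSK/PMA array and 53.2 on the Ad-GFP array. Both stimulated arrays were far above the floor, and the unstimulated array was below it and just above the highest negative control. Penk was therefore at least 55.8-fold higher with FSK/PMA than without, where the bound sets the unstimulated signal at the floor, and the plain ratio of signals was 132. With NFIL3 it was 1.46-fold lower than with the GFP virus, a log2 difference of -0.54, so the Ad-NFIL3 array held 68.7% of the signal of the Ad-GFP + FSK/PMA array. It remained at least 38.3-fold above the Ad-GFP array.

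Adcyap1 encodes the precursor of PACAP, a peptide of the secretin and VIP family that raises cyclic AMP through its receptor. The brighter of its probe sets had signals of 621 on the Ad-NFIL3 + FSK/PMA array, 2492 on the Ad-GFP + FSK/PMA array and 79.2 on the Ad-GFP array. The second had 560, 2291 and 53.3 on the same arrays. Both probe sets gave the same order of arrays, with the unstimulated signal below the floor. With FSK/PMA they were at least 19.8-fold and at least 18.2-fold higher. With NFIL3 they were 4.02-fold and 4.09-fold lower, log2 differences of -2.01 and -2.03, and held 24.9% and 24.5% of the stimulated signal with the GFP virus. Against the Ad-GFP array the Ad-NFIL3 + FSK/PMA array was at least 4.93-fold and at least 4.45-fold higher.

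Adcyap1r1 encodes PAC1, the receptor that prefers PACAP, and Vip encodes vasoactive intestinal peptide, a relative of PACAP that is also known from ovarian nerves. The brightest Adcyap1r1 probe set by mean had signals of 72.4 on the Ad-NFIL3 + FSK/PMA array, 40.8 on the Ad-GFP + FSK/PMA array and 63.3 on the Ad-GFP array. The other probe sets had 38.8, 103 and 26.5, then 29.0, 60.1 and 23.7, and then 5.18, 54.9 and 20.8 on the same arrays. These last 3 were highest on the Ad-GFP + FSK/PMA array and the first was lowest there, and all 12 of these values were below the floor, so no fold is given for the gene. Vip had signals of 13.0, 3.63 and 15.0 on the Ad-NFIL3 + FSK/PMA, Ad-GFP + FSK/PMA and Ad-GFP arrays, all below the highest negative control.

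With a lower floor of 46.2, the 25th percentile of all signals, the Adcyap1r1 probe sets disagreed. The one with the highest single value was at least 2.24-fold higher on the Ad-GFP + FSK/PMA array than on either other array, whereas the brightest by mean was at least 1.37-fold lower with FSK/PMA and at least 1.57-fold higher with NFIL3. Of the 18 values of Adcyap1r1, Vip and Nts, 5 were above the highest negative control, all of them of Adcyap1r1. A change in the receptor transcript was thus not measurable at this sensitivity.

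Cga encodes the alpha subunit that luteinizing hormone, follicle-stimulating hormone and thyroid-stimulating hormone share, a gene known mainly from the pituitary. Its signal was 220 on the Ad-NFIL3 + FSK/PMA array, 1110 on the Ad-GFP + FSK/PMA array and 43.4 on the Ad-GFP array. It passed the floor on both stimulated arrays, and the unstimulated signal was below the highest negative control. Cga was at least 8.82-fold higher with FSK/PMA, and the plain ratio of signals was 25.6. With NFIL3 it was 5.04-fold lower, a log2 difference of -2.33, and held 19.8% of the stimulated signal with the GFP virus. Against the Ad-GFP array the Ad-NFIL3 + FSK/PMA array was at least 1.75-fold higher, a bound under 2-fold, which became at least 4.77-fold with the floor of 46.2. Fshb, Lhb and Tshb, the beta subunits that pair with it in the pituitary, and Gpha2 were below the floor on all 3 arrays.

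Nts encodes the precursor of neurotensin, a peptide known from gut and brain. Its signals were 10.3 on the Ad-NFIL3 + FSK/PMA array, 15.0 on the Ad-GFP + FSK/PMA array and 22.9 on the Ad-GFP array. All were below the highest negative control, so neurotensin transcript was not detected and its direction is not read.

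Counted over the members, 3 of 6 were above the floor on at least 1 array, against 68.8% of all genes. In the FSK/PMA comparison all 3 measured members were at least 2-fold higher and 0 were lower, where 9395 genes were measured, 7.43% of them higher and 11.4% lower by this limit. In the NFIL3 comparison 2 of 3, Adcyap1 and Cga, were at least 2-fold lower and 0 were higher, where 9397 genes were measured, 0.958% of them lower and 1.34% higher. Of the genes past 2-fold, 39.4% were higher in the first comparison and 58.3% in the second, and with arrays scaled to a common median these shares were 50.1% and 20.2%; quantile normalisation gave 44.8% and cyclic loess 42.9% in the second. Between the Ad-NFIL3 + FSK/PMA array and the Ad-GFP array 2 of 3 members were at least 2-fold higher and 0 lower, where 9647 genes were measured, 6.52% of them higher and 9.05% lower. The members were selected on their differences between these arrays, with results of the FSK/PMA and NFIL3 comparisons known, so their counts are descriptions and nothing is read from their excess over all genes. The 3 comparisons share arrays: a high signal on the Ad-GFP + FSK/PMA array alone would raise the first difference and lower the second.

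**Figure D2:**
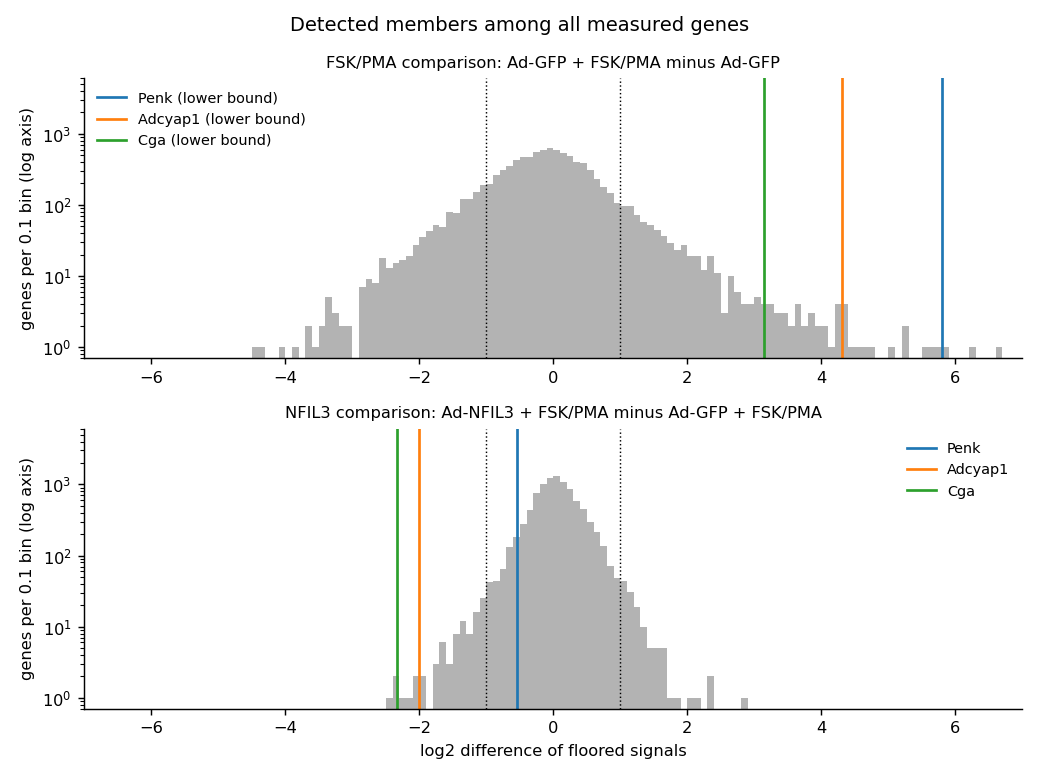
Log2 differences of floored signals (x axis) for all genes measured in the FSK/PMA comparison (Ad-GFP + FSK/PMA minus Ad-GFP, top) and the NFIL3 comparison (Ad-NFIL3 + FSK/PMA minus Ad-GFP + FSK/PMA, bottom), as gene counts per bin (log axis), with Penk, Adcyap1 and Cga as coloured lines and 2-fold as dotted lines. Members lie at 5.80, 4.31 and 3.14 as lower bounds in the top panel and at -0.54, -2.01 and -2.33 in the bottom panel, where Penk lies within 2-fold.

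The members' NFIL3 differences were known when they were chosen, so their place among all genes is a description. Among 8432 genes above the floor on both stimulated arrays, Cga had the 2nd lowest and Adcyap1 the 7th lowest difference, and Penk was number 424 from the lowest, with 5.02% of genes below it. Genes that fell below the floor on the Ad-NFIL3 + FSK/PMA array are not ranked here, however large their decrease. The only measure of technical error was the disagreement within genes with exactly 2 measured probe sets, which differed with a robust SD of 0.20 per log2 NFIL3 difference over 947 genes with a highest signal of at least 503, and 0.24 over all 1846 such genes. This spread leaves out variation between cultures, which 1 pool per group cannot show, so whether the members differ from each other under NFIL3 was not tested.

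Genes with the most similar pair of differences were searched for each detected member among 6373 named genes whose highest signal reached 4 times the floor, by the distance between their FSK/PMA and NFIL3 log2 differences. Only 3 arrays stand behind each pattern, and the FSK/PMA difference of each member is a bound. It is also a bound for Tnfaip6, Nr4a3, Sult1e1, Ereg, Rgs1 and Pgr among the genes named below. For these, both unstimulated signals are set to the floor, so the distance reflects the stimulated arrays alone. Nearest to Penk were Tnfaip6, of the cumulus matrix, at a distance of 0.56, the kinase gene Plk2 at 0.65 and the zinc finger gene Giot1 at 0.74, whose NFIL3 differences were -0.26, -1.16 and -0.11. Nearest to Adcyap1 were the nuclear receptor gene Nr4a3 at 0.28, the estrogen sulfotransferase gene Sult1e1 at 0.47 and the adhesion receptor gene Adgrg6 at 0.64, with NFIL3 differences of -1.74, -2.25 and -1.47. Nearest to Cga were Ereg, which encodes epiregulin, at 0.40, Rgs1, a regulator of G protein signalling, at 0.50 and Pgr, the progesterone receptor, at 0.69, with NFIL3 differences of -2.07, -1.94 and -1.78.

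Other precursors and hormone subunits were mostly below the floor. Of 56 listed genes on the array, 40 were below the floor on all 3 arrays, among them Pomc, Sst, Npy and Cck. In the FSK/PMA comparison 9 were measured, of which 2 were at least 2-fold higher and 2 lower, with a median log2 difference of 0.09, against -0.10 for all measured genes; here and below, medians take bounds at their value. The count of higher precursors rested on the floor, as it was 7 with the floor of 46.2 and 6 with no floor and a pseudocount of 50, and the median was -0.32 with a floor of 547, the 75th percentile. Nmu, the precursor of neuromedin U, had signals of 1285 on the Ad-NFIL3 + FSK/PMA array, 2329 on the Ad-GFP + FSK/PMA array and 6.22 on the Ad-GFP array. It was at least 18.5-fold higher with FSK/PMA and 1.81-fold lower with NFIL3, so it followed the order of arrays seen for the 3 detected members. Edn2, endothelin 2, had signals of 417, 395 and 69.5 and was at least 3.14-fold higher with FSK/PMA and 1.06-fold higher with NFIL3.

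Stc1, which encodes the glycoprotein hormone stanniocalcin 1, ran the other way under the stimulus. Its signal was 721 on the Ad-NFIL3 + FSK/PMA array, 2227 on the Ad-GFP + FSK/PMA array and 10212 on the Ad-GFP array. It was 4.59-fold lower with FSK/PMA and 3.09-fold lower with NFIL3, and its dimmer probe sets had log2 differences of -1.91 and -2.27 in the first comparison. In the second they fell by 1.43 and by at least 0.82 on the log2 scale, the last against a signal of 118 on the Ad-NFIL3 + FSK/PMA array, below the floor. Nppc, the C-type natriuretic peptide precursor, was at least 4.17-fold lower with FSK/PMA and not measured in the NFIL3 comparison. Of 15 precursors measured in that comparison, 1 was at least 2-fold higher and 1, Stc1, lower, with a median of 0.10 against 0.03 for all genes, which was -0.11 with arrays scaled to their median and -0.52 with the floor of 547. Pdyn, the precursor of the dynorphin opioids, was the higher one, with signals of 1137 and 498 on the Ad-NFIL3 + FSK/PMA and Ad-GFP + FSK/PMA arrays, 2.28-fold higher with NFIL3. A second, dimmer Pdyn probe set had 133 and 73.8 on the same arrays, higher by at least 0.08 on the log2 scale, with a plain ratio of 1.80, and the main one was within 2-fold when arrays were scaled to their median. Gal, the galanin precursor, was at least 1.75-fold higher with NFIL3. Of the 15 precursors 9 were bounds, so the counts rest on the floor. In 3 of these, Ppy, Trh and Vgf, the plain ratio of signals passed 2-fold, at 6.66, 2.14 and 2.18, higher with NFIL3.

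Receptors for the member peptides and hormones were measured in 4 of 15 cases. Oprm1, Oprd1 and Oprk1, the opioid receptors, Vipr1 and Vipr2, which bind both PACAP and VIP, and the neurotensin receptors Ntsr1 and Ntsr2 were below the floor on all 3 arrays. Lhcgr, the luteinizing hormone receptor, was the only receptor past 2-fold, with signals of 1150, 2473 and 6631 on the Ad-NFIL3 + FSK/PMA, Ad-GFP + FSK/PMA and Ad-GFP arrays. It was 2.68-fold lower with FSK/PMA and 2.15-fold lower with NFIL3, where a dimmer probe set differed by -0.57. Sort1, a sorting receptor that binds neurotensin, and Ogfr, the opioid growth factor receptor, were 1.48-fold and 1.12-fold lower with FSK/PMA and 1.28-fold and 1.30-fold lower with NFIL3. Ramp1, a receptor partner protein, was 1.56-fold lower with FSK/PMA and 1.72-fold higher with NFIL3. The list's median over 4 genes was -0.61 in the first comparison and -0.36 in the second, against -0.10 and 0.03 for all measured genes. The follicle-stimulating hormone receptor gene Fshr, also listed, had no probe set assigned to it alone and was not read.

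Enzymes that cut precursors or degrade peptides were largely present. Of 24 on the array 19 were measured in the FSK/PMA comparison, with 2 at least 2-fold higher, 1 lower and a median of -0.02, which was above 0 in 5 of 8 other settings. Pcsk5, a prohormone convertase, had signals of 1270 on the Ad-NFIL3 + FSK/PMA array, 2397 on the Ad-GFP + FSK/PMA array and 443 on the Ad-GFP array, 5.42-fold higher with FSK/PMA and 1.89-fold lower with NFIL3. Its second probe set above the floor differed by 2.71 and -1.10 on the log2 scale. Pcsk6, a related convertase, was at least 3.17-fold higher with FSK/PMA and 1.85-fold lower with NFIL3, while Ece1, an endothelin-converting enzyme, was 1.86-fold lower with FSK/PMA. The neuroendocrine convertase gene Pcsk2 and its chaperone gene Scg5 were below the floor on all arrays. The convertase gene Pcsk1, also on the list, had no probe set assigned to it alone and was not read.

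Anpep, aminopeptidase N, which degrades enkephalins among other peptides, had signals of 933, 183 and 459 on the Ad-NFIL3 + FSK/PMA, Ad-GFP + FSK/PMA and Ad-GFP arrays. It was 2.51-fold lower with FSK/PMA and 5.11-fold higher with NFIL3, the reverse of the detected members. Ace, angiotensin-converting enzyme, was 1.98-fold higher with NFIL3, and its dimmer probe set differed by at least 1.18 on the log2 scale. Of 19 genes of this list measured in the NFIL3 comparison 1 was at least 2-fold higher and 0 lower, with a median of 0.14, which was -0.08 with arrays scaled to their median.

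Genes of secretory granules and regulated release were split under the stimulus. Of 12 measured in the FSK/PMA comparison, 4 were at least 2-fold higher and 3 were lower, with a median of 0.12. Of the 12, 5 were bounds. In 2 of these, Chgb and Cplx2, the plain ratio passed 2-fold without a call, at 3.64 and 0.33. Ptprn, which encodes the granule membrane protein IA-2, had signals of 5466 on the Ad-NFIL3 + FSK/PMA array, 7508 on the Ad-GFP + FSK/PMA array and 526 on the Ad-GFP array, 14.3-fold higher with FSK/PMA and 1.37-fold lower with NFIL3. The vesicle fusion gene Snap25 was at least 5.23-fold higher with FSK/PMA and the granin gene Scg2, itself a peptide precursor, was 3.93-fold higher. Rab3a, a small GTPase of secretory vesicles, was at least 2.98-fold lower. In the NFIL3 comparison 0 of 14 passed 2-fold, with a median of 0.01 that was below 0 in 5 of 8 other settings. Of the 14, 5 were bounds, and in 2 of these, Rab3a and the synaptotagmin gene Syt9, the plain ratio of signals passed 2-fold. Rab3a had signals of 191 and 88.1 on the Ad-NFIL3 + FSK/PMA and Ad-GFP + FSK/PMA arrays, higher by at least 0.60 on the log2 scale, with a plain ratio of 2.17. Scg2, Ptprn and Scg3, a granin that binds granule membranes, had measured log2 differences of -0.48, -0.46 and -0.23.

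Genes listed as cyclic AMP-responsive had 17 of 22 measured at least 2-fold higher with FSK/PMA and 0 lower, with a median of 1.61. Forskolin and PMA were given together and no group received either alone. Their parts in the differences of these genes and of the members cannot be told apart. Of all measured genes 7.43% were higher and 11.4% lower, with a median of -0.10. The list was chosen with earlier results of these data known, so its counts are a description. Nr4a1, Nr4a3, the phosphodiesterase gene Pde4b and Crem had log2 differences of 4.25, at least 4.23, at least 3.97 and 3.09. In the NFIL3 comparison 1 was at least 2-fold lower and 1 higher, with a median of -0.23. The lower one was Nr4a3, by 3.34-fold, and the higher one Egr2, by 2.51-fold; Nr4a2 was 1.84-fold and Fosl2 1.82-fold lower, so among these genes Nr4a3 came closest to the differences of Adcyap1 and Cga. Its dimmer probe sets had NFIL3 differences of -1.52 and 0.06, the last from signals of 141 and 135 on the Ad-NFIL3 + FSK/PMA and Ad-GFP + FSK/PMA arrays, near the floor. The second Fosl2 probe set differed by -1.16 and 1 dimmer Crem probe set by -1.17. Both were past 2-fold, which the count by brightest probe set leaves out. The other dimmer Crem probe sets lay between -0.80 and -0.05, and the brightest at -0.69.

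**Figure D3:**
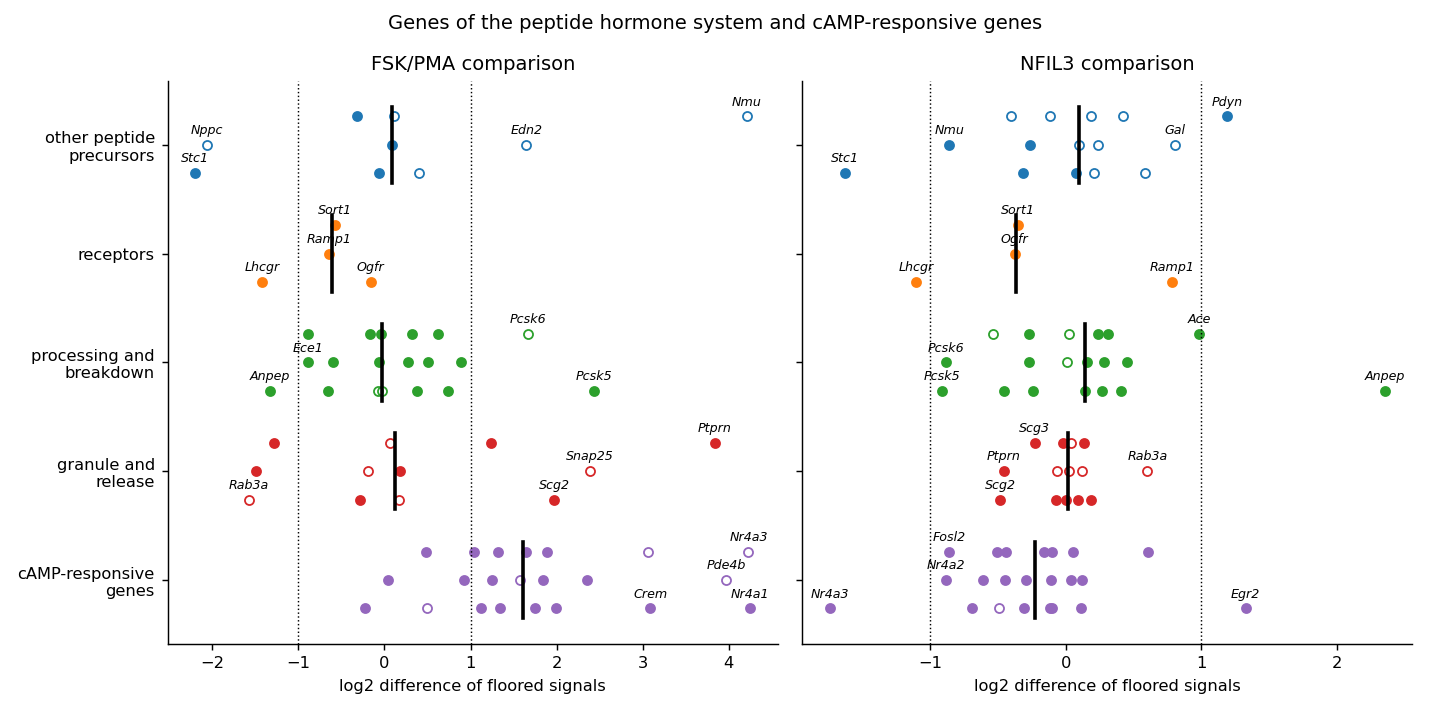
Log2 differences of floored signals (x axis) for every measured gene of the lists in the rows in the FSK/PMA comparison (left) and the NFIL3 comparison (right); open circles are bounds, black bars are list medians and dotted lines mark 2-fold. In the NFIL3 panel the precursor genes Stc1 and Pdyn, the receptor gene Lhcgr, the peptidase gene Anpep, and Nr4a3 and Egr2 lie past 2-fold.

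Markers of cells that could carry neuroendocrine transcripts were read beside these results. Of 9 pituitary markers on the array, 8 were below the floor on all arrays, Pomc, Gh1, Prl, Fshb, Lhb and Tshb among them; the ninth was Gnrhr, which rat granulosa cells are known to express and which made up most of the list's summed signal of 10340, 16578 and 16001 on the Ad-NFIL3 + FSK/PMA, Ad-GFP + FSK/PMA and Ad-GFP arrays. Of 9 chromaffin and sympathetic markers 7 were below the floor, Th and Dbh included, and the summed signal of the list was 648, 588 and 402 on the Ad-NFIL3 + FSK/PMA, Ad-GFP + FSK/PMA and Ad-GFP arrays. The others were Slc18a2 and Chgb. Chgb had signals of 161, 142 and 39.0 on the same arrays, so it passed the floor with the stimulus only. Its FSK/PMA difference was a bound that was not called, with a plain ratio of 3.64. Of 14 neuron and nerve fibre markers 4 were below the floor on all arrays, Rbfox3, Stmn2, Gap43 and Prph. Gap43 was only just below it on the Ad-GFP + FSK/PMA array, at 125.7 against 125.9. The list summed to 4265, 5432 and 3916 on the same arrays, where 10, 7 and 5 of its markers were above the floor. Map2 and Uchl1 were the brightest, at 1702 and 1262 on the Ad-GFP + FSK/PMA array. Snap25 was at least 5.23-fold higher with FSK/PMA and 1.01-fold lower with NFIL3. Nefm, a neurofilament gene, was at least 2.52-fold higher with FSK/PMA and 2.38-fold lower with NFIL3, and the part of nerve fibre transcripts in the results was not tested. All 13 granulosa cell markers on the array, Cyp19a1, Star and Foxl2 among them, were above the floor on both stimulated arrays, and they summed to 92400 on the Ad-NFIL3 + FSK/PMA array, 139793 on the Ad-GFP + FSK/PMA array and 141918 on the Ad-GFP array. With NFIL3 4 of the 13 were at least 2-fold lower, as were Adcyap1 and Cga, and 0 were higher: Hsd17b1, Inhba, Cyp19a1 and Lhcgr had log2 differences of -1.62, -1.36, -1.33 and -1.10. With FSK/PMA 3 of the 13 were higher, Cyp19a1, Star and Cyp11a1, and 6 were lower. The 10 theca and stroma markers summed to 1535, 1075 and 1323 on the Ad-NFIL3 + FSK/PMA, Ad-GFP + FSK/PMA and Ad-GFP arrays, and 1 of the 4 measured in the NFIL3 comparison, the matrix gene Dcn, was 2.45-fold higher there. Pdgfra was a bound there that was not called, with a plain ratio of 2.22. The 11 leukocyte markers summed to 3458, 2982 and 2330 on the same arrays, with 0 called past 2-fold with NFIL3, and Cd14 was 2.46-fold higher with FSK/PMA. Among the leukocyte markers Laptm5 was an uncalled bound with NFIL3, with a plain ratio of 2.05. The 2 red cell markers summed to 15713, 18366 and 19937 on these arrays, with 0 past 2-fold in either comparison. Of 5 oocyte markers 1, Zp2, was above the floor, and it was 2.20-fold lower with FSK/PMA. The part of these cell markers in the lower signals of Adcyap1 and Cga was not tested. Fewer cells that make a peptide and less transcript per cell cannot be told apart in RNA of whole cultures.

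The plot by processing setting shows how far each member's difference moved with the floor, the scaling and the probe set rule. In the FSK/PMA comparison the unstimulated signals of all 3 detected members were set to the same floor, so the order of their bounds restates their stimulated signals and does not rank the members by induction. In the NFIL3 comparison the difference of Cga is a bound with the floor at the 75th percentile.

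**Figure D4:**
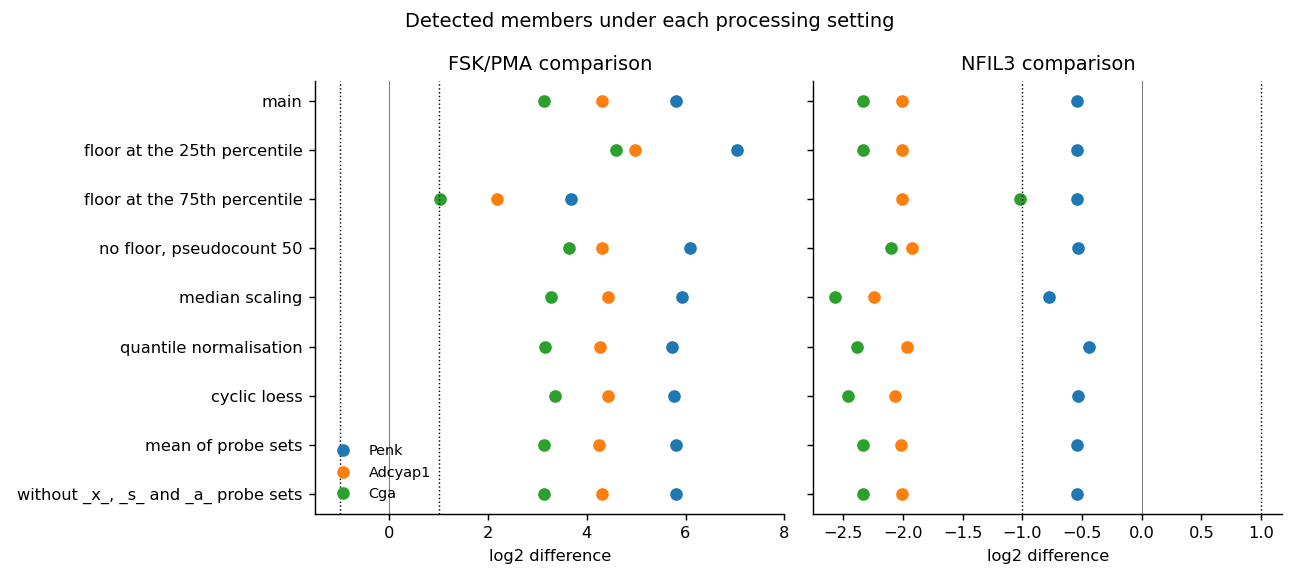
Log2 differences (x axis) of Penk, Adcyap1 and Cga under each processing setting (rows) in the FSK/PMA comparison (left) and the NFIL3 comparison (right), with dotted lines at 2-fold. In the NFIL3 panel Adcyap1 and Cga stay past 2-fold under all settings shown and Penk ranges from -0.78 to -0.44, within 2-fold; in the FSK/PMA panel the level of the floor sets the size of the bounds.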

How the data were processed

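Total RNA of cultured rat granulosa cells was measured on 3 Affymetrix rat genome arrays, 1 per group; per the labels, RNA of 3 experiments was pooled and 5 ug were used. The authors deposited 1 linear intensity, the MAS5 signal, per probe set and array. The tool name comes from the submitters' processing notes, which here give no version. MAS5 subtracts mismatch signal, so low values are noisy. Each column had a 2% trimmed mean of 500.2, so the authors' values were already scaled. Arrays were brought to that common mean, signals under 126 were set to this floor and turned into log2 values. A gene was read from its brightest probe set by mean signal, measured where at least 1 of the 2 arrays reached the floor; folds against an array below it are bounds. Differences of 2-fold were counted. With 1 array per group no test is possible, and precision is limited by the number of arrays.

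The annotation gave 1 gene for 20832 probe sets, several for 436 and none for 9831, and 20764 matched RefSeq (GRCr8) by Entrez ID. Members and lists were chosen with earlier results of these data known. Named are all members, Nfil3, up to 4 genes of each list with the largest difference, and the 3 nearest genes per member; other list and marker genes were named after their values were seen. The alternatives were other floors, scalings, probe set rules and a 1.5-fold limit. Python 3.11.15, pandas 2.3.3 and limma 3.58.1 (cyclic loess) were used.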

Additional observations from a re-analysis of the deposited data

How the results depend on the processing

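The members' calls with FSK/PMA and with NFIL3 were the same under all 9 alternatives: 3 higher in the first, and 2 lower, Adcyap1 and Cga, in the second. The Adcyap1 NFIL3 difference ranged from -2.24 to -1.92 and that of Penk from -0.78 to -0.44. That of Cga ranged from -2.57 to -1.02, the last with a floor at the 75th percentile (547), which lies above its signal on the Ad-NFIL3 + FSK/PMA array. The FSK/PMA differences follow the floor: log2 3.68 to 7.04 for Penk, 2.19 to 4.98 for Adcyap1 and 1.02 to 4.59 for Cga. With the floor at the 25th percentile, those of Penk and Adcyap1 were measured and that of Cga stayed a bound. Between the Ad-NFIL3 + FSK/PMA and Ad-GFP arrays, members at least 2-fold higher numbered 3 with the floor at the 25th percentile, with no floor and a pseudocount of 50, and at 1.5-fold, in place of 2, and 1 with the floor at the 75th percentile.

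Over all genes, the floor at the 75th percentile gave 420 higher and 402 lower with FSK/PMA, 36 and 48 with NFIL3 and 343 and 381 in the combined one. A 1.5-fold limit gave 1403 and 2259, 640 and 399, and 1411 and 1942. The floor at the 25th percentile gave 545 higher and 236 lower in the NFIL3 comparison and 1082 higher in the combined one. The pseudocount gave 296 and 166, and median scaling 48 and 190, in the NFIL3 comparison. Median scaling moved the median of all measured genes there to -0.20, against 0.03, and with FSK/PMA to 0.03, against -0.10. Of the other values, for single members and lists, 306 stayed within the probe set spread or 1.5 times the count and 61 moved further. No member's difference changed sign, but 6 of 10 list medians, all near 0, did so in at least 1 setting, 16 times in 80. The precursor median ranged from -0.32 to 0.20 with FSK/PMA and from -0.52 to 0.10 with NFIL3, that of processing genes from -0.04 to 0.25 and from -0.08 to 0.15, and that of granule genes from -0.09 to 0.20 and from -0.19 to 0.03. The cause was not tested where the floor or limit does not set it.

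No paired analysis was possible because each group had 1 array. Low signals limit what can be said of Adcyap1r1, Vip and Nts, and control signals below the floor leave the FSK/PMA differences of the other members as bounds. Differences between cultures and between hybridisations were not measured, and no experiment's own RNA was hybridised alone. Cells with the NFIL3 virus and no stimulus were not analysed here, so NFIL3 effects on unstimulated peptide genes are not covered.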
